A study of Mus musculus with 4 samples.

Results

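The nuclear-encoded genes of the mitochondrial respiratory chain and ATP synthase were examined in thymocytes in which Cd4-cre deletes Chaf1b. They were taken by symbol: protein-coding genes outside the mitochondrial genome whose names begin with Nduf, Uqcr, Uqcc, Atp5, Sdhaf or Cox followed by 4 to 8, together with Sdha to Sdhd, the assembly factors Cox10 to Cox19 and Cox20. This gave 110 gene IDs with 109 symbols among the 56239 genes of the table, 36 for complex I subunits, 4 for complex II, 8 for complex III, 19 for complex IV, 18 for complex V and 25 for assembly factors. Atp5o has 2 IDs, of which the second shares all its exon bases with the first or with Donson and has no counts. Ndufa4 and Ndufa4l2 are named after complex I but are placed here with complex IV, where the NDUFA4 protein is now known to sit. Some subunits and many assembly factors carry other names, and they were read as separate lists.

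The libraries came from CD4+CD8+ double-positive (DP) thymocytes, the immature T cells from which the mature lineages are selected, sorted from C57BL/6 mice. The KO group (2 libraries) carried Cd4-cre and floxed Chaf1b alleles (Cd4-cre;CHAF1bfloxp/floxp). The WT group (2 libraries) carried the same floxed alleles without the Cre transgene (CHAF1bfloxp/floxp), so WT mice lacked the transgene as well as the deletion. Cd4-cre is expressed from the Cd4 regulatory elements and acts in thymocytes from about the DP stage onwards. Chaf1b encodes a subunit of chromatin assembly factor 1, which places histones on newly copied DNA. Chaf1b itself had 12.2 and 14.8 CPM (counts scaled to library size with TMM normalisation factors) in KO libraries, against 27.9 and 31.7 CPM in WT libraries. Its log2 fold change was -1.14 ± 0.16 (SE), so a good part of the transcript remained in KO libraries. The edgeR adjusted p of Chaf1b was 0.267 without a covariate and 0.017 with the replicate number as a term.

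The respiratory chain passes electrons from NADH (complex I) and succinate (complex II) through coenzyme Q, complex III and cytochrome c to oxygen at complex IV, pumping protons across the inner mitochondrial membrane. ATP synthase, complex V, uses the returning protons to make ATP. Most subunits are encoded in the nucleus and imported, the remainder are encoded by mitochondrial DNA, and assembly factors insert cofactors or hold subunits until a complex is complete. DP thymocytes pass through bursts of division and then rest, and their use of respiration is known to vary with that stage.

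Library totals ran from 21068760 to 27369874 counts, and the KO replicates differed more from each other than the WT replicates did. The replicate number separated the sexes: replicate 1 of each genotype expressed Xist (2086 CPM in KO, 1999 CPM in WT) and replicate 2 of each expressed the Y-linked gene Ddx3y (153 CPM in KO, 190 CPM in WT). The labels state no sex, and anything else that follows the replicate number cannot be told apart from it. Differences within a replicate number are called the female and the male pair. The 9 DP thymocyte markers had summed levels of 18184 and 14889 CPM in KO libraries and 14564 and 14306 CPM in WT libraries, with Cd4, Cd8a, Rag1 and Rag2 abundant in all 4. The 5 hepatocyte markers, with Alb in front, summed to 324 and 4.21 CPM in KO libraries and 307 and 66.4 CPM in WT libraries, so they followed the replicate number. Of the B cell markers, Ighm had 461.9 and 462.6 CPM in KO and 471.4 and 403.8 CPM in WT libraries, and Cd79a, Ms4a1 and Pax5 had at most 2.12 CPM in any library. Of the 5 NK and gamma-delta T cell markers, Trdc had 96.6 and 89.2 CPM in KO and 88.0 and 75.5 CPM in WT libraries, Ncr1 was at 0 in all 4, and the others had at most 1.02 CPM. Macrophage and granulocyte, erythroid, and stromal markers each summed to at most 10.5 CPM in any library. The part of these differences in the results below was not tested. In bulk RNA, fewer cells of a type and less RNA per cell cannot be told apart.

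Promoter sequence was available for 88 of the 109 symbols (RefSeq, GRCm38.p6, from 250 bases before to 50 bases after each annotated start). It was searched on both strands for 3 short motifs of factors known to act on respiratory chain genes: the core of nuclear respiratory factor 1 (NRF1, GCGCATGC), of ETS factors such as GABP (CCGGAAGT) and of YY1 (AAGATGGC). The YY1 letters stood in 13 members (14.8%), against 3.19% of all 27025 promoters of the table and 5.52% of those of tested protein-coding genes. The NRF1 letters stood in 12 members (13.6%), against 3.05% and 6.20%. The ETS letters stood in 9 members (10.2%), against 4.31% and 9.67%, so they were about as frequent as in other tested genes. All 13 YY1 matches read along the gene's own strand, 11 of them lay after the annotated start, and in 9 the ATG inside the motif is the annotated start codon. The windows below show YY1 matches in members with positive and negative changes, with the motif in capitals. The Cox20 match lies before the annotated start, and in Cox20 and Cox10 the ATG is not the annotated start codon.
Cox20 (chr1:178319067-178319096, plus strand): gaacgctccctAAGATGGCcgccgccgcgc
Cox10 (chr11:64079433-64079462, minus strand): ggcgggctagcAAGATGGCggcgcccagga
Uqcc2 (chr17:27133862-27133891, minus strand): aagcggggcccAAGATGGCcgctctccgct
Ndufs6 (chr13:73328433-73328462, minus strand): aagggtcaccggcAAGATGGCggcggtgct
Ndufs7 (chr10:80249462-80249491, plus strand): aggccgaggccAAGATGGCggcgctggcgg

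The NRF1 letters end in GCATGC, which is its own reverse complement. Where a site runs on to GCGCATGCGC, the matches on both strands overlap, and the capitals run over both. A window for each complex, and for an assembly factor, shows where the letters stand.
Ndufa8, complex I (chr2:36049328-36049357, minus strand): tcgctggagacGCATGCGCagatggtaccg
Sdhb, complex II (chr4:140961206-140961235, plus strand): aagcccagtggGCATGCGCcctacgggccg
Uqcrc1, complex III (chr9:108936667-108936696, plus strand): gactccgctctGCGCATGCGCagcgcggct
Cox6a1, complex IV (chr5:115349102-115349131, minus strand): acaggaacgggGCGCATGCGCgctctcgct
Atp5g2, complex V (chr15:102671071-102671100, minus strand): tggctccggccGCGCATGCGCagagccttc
Ndufaf4, assembly (chr4:24897959-24897988, plus strand): cccagatgtctGCGCATGCGCctgtgcgga

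Members with and without these letters had similar changes between KO and WT. The median log2 fold change was 0.19 with and 0.17 without the YY1 letters, 0.17 with and 0.17 without the NRF1 letters, and 0.20 with and 0.16 without the ETS letters. A match of letters is no evidence that the factor binds there.

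As a group, these transcripts were slightly more abundant in KO than in WT libraries, and the shift was spread over all 5 complexes. Of the 105 members with enough counts to test, 86 had a positive log2 fold change (KO over WT, edgeR), against 49.8% of all 15070 tested genes. Both KO libraries lay above both WT libraries for 65 members (61.9%), against 27.9% of all tested genes, and below them for 10 (9.52%), against 28.4%. The shift was small: the median log2 fold change was 0.17 over the members and -0.00 over all tested genes, 31 members lay within 10% of equal levels (28.6% of all tested genes), and 7 differed by more than 1.5-fold (18.4% of all). It was larger in the female pair (median log2 difference 0.24) than in the male pair (0.10), and 70 members were higher in KO in both pairs, against 35.5% of all tested genes. Over the members, the median log2 difference of replicate 1 minus replicate 2 was 0.090 in KO and -0.045 in WT. For single members, the KO replicates differed from each other by a median of 0.19 in either direction and the WT replicates by 0.060. The count of non-overlapping members depended on scaling: with library totals in place of TMM factors it was 48 above, against 21.7% of all genes, and 10 below, against 32.3%.

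No single member passed the test without a covariate. This edgeR quasi-likelihood test called 0 members higher (0.00664% of all tested genes) and 0 lower (0%) at an adjusted p of 0.05, with 18 members higher (8.14% of all genes) and 5 lower (8.69%) at an unadjusted p below 0.05, and limma-voom also called 0. A second edgeR fit, called the sex-term fit, had the replicate number as a term. That term takes up sex and anything else that follows the replicate number, such as the hepatocyte markers. In it 1 member rose (1.01% of all genes were called higher) and 3 fell (2.2% were called lower). They were Ndufa13, which rose, and Cox20, Cox6b2 and Cox11, which fell. DESeq2 without that term called the same 4 (1.17% of all genes higher, 1.89% lower). With edgeR's robust dispersion and the sex term 0 were called. Over all alternatives the adjusted p ran from 1.7e-12 to 0.806 for Cox20, from 2.0e-07 to 0.825 for Cox6b2, from 0.0018 to 0.853 for Cox11 and from 0.00047 to 0.884 for Ndufa13, highest without a WT replicate. Without a filter on low counts 7 members were called higher (2.41% of all genes) and 3 lower (3.22%). Leaving out a library of KO leaves 1 in that arm, which is then assumed to vary like the WT libraries, although the KO replicates differed more. Without KO replicate 2, 34 members were higher (16.3% of all genes) and 9 lower (16.8%). Without KO replicate 1, 0 were higher (0.272%) and 1 lower (0.73%), which was Cox20, and without either WT replicate 0 were called. Below, a gene is said to pass or not to pass by the 2 edgeR fits on all 4 libraries.

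**Figure D1:**
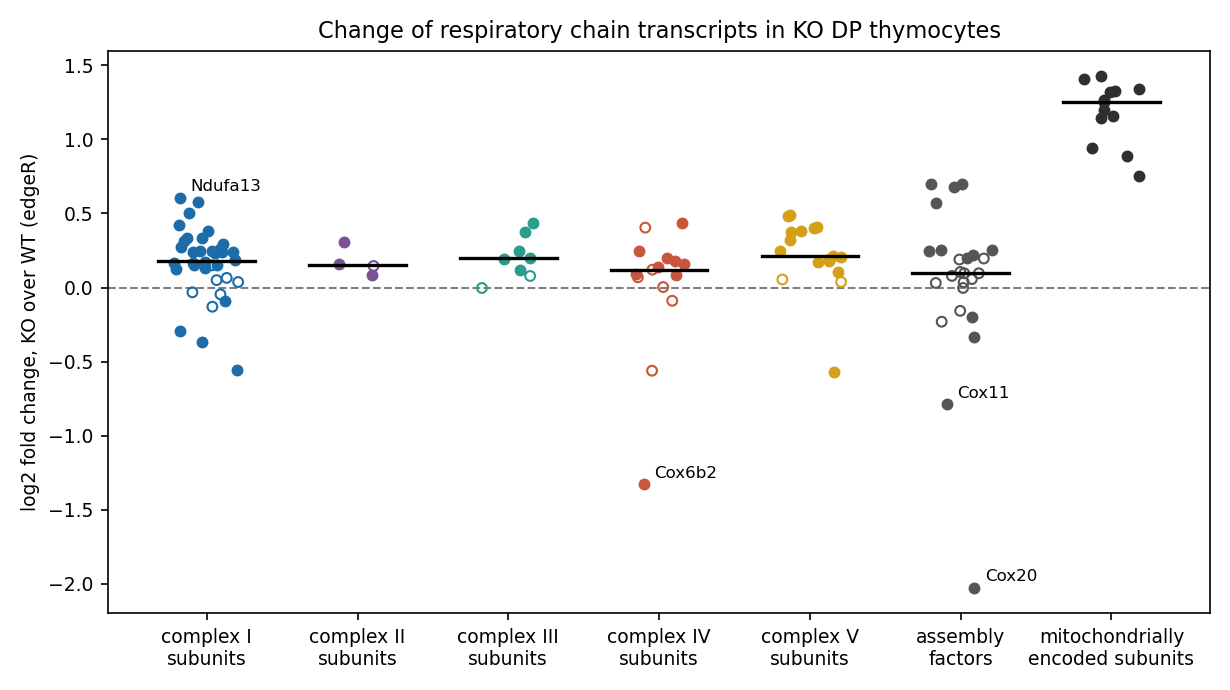
Log2 fold change of KO over WT (edgeR, no covariate) for each tested member by complex, with the 13 mitochondrially encoded subunits at the right. Filled points are genes whose KO libraries both lie above or both below the WT libraries, open points overlap; black bars are medians, the dashed line is the median of all tested genes, and the 4 labelled genes were called in the sex-term fit. The nuclear-encoded subunits centre between 0.12 and 0.21 and the mitochondrially encoded ones at 1.25.

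Complex I, the NADH dehydrogenase, had 36 members, all tested, with a median log2 fold change of 0.18. Both KO libraries were above both WT libraries for 25 (69.4%, against 27.9% of all tested genes) and below for 4 (11.1%, against 28.4%). Ndufa13, an accessory subunit also known as a cell death regulator, had 104.5 and 84.3 CPM in KO libraries, against 62.4 and 61.7 CPM in WT libraries. The KO values were higher in both pairs, and the log2 fold change was 0.61 ± 0.14 (SE; adjusted p = 0.267 without a covariate and 0.043 with the sex term). Its exons overlap those of Tssk6 over 375 of 1251 bases, so reads there were left out of its count. Tssk6 had 2.51 and 2.68 CPM in KO libraries and 5.15 and 4.59 CPM in WT libraries.

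The next highest changes in complex I belonged to further accessory subunits. Ndufs6, in the peripheral arm, had 61.7 and 42.1 CPM in KO and 31.4 and 38.3 CPM in WT libraries. Ndufa10 had 80.2 and 68.8 CPM in KO and 51.5 and 53.4 CPM in WT libraries. Neither passed the test (adjusted p = 0.275 and 0.267 without a covariate, 0.121 and 0.072 with the sex term). Among core subunits, which carry the electrons, Ndufv1, which binds the flavin, had 83.5 and 77.8 CPM in KO and 69.2 and 72.5 CPM in WT libraries. Ndufs1, which holds iron-sulphur clusters, overlapped between the groups at 66.7 and 77.0 CPM in KO and 71.7 and 85.5 CPM in WT libraries.

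Another 4 complex I members were lower in both KO libraries and passed in neither fit. Without KO replicate 2, which leaves 1 KO library, Ndufab1 and Ndufs7 had log2 fold changes of -0.47 and -0.51. Ndufb2, an accessory subunit of the membrane arm, had the lowest change, with 7.81 and 7.31 CPM in KO and 10.6 and 11.6 CPM in WT libraries (log2 fold change -0.55 ± 0.18; adjusted p = 0.267 and 0.166). Ndufab1, the mitochondrial acyl carrier protein, which also serves fatty acid synthesis, had 37.2 and 42.9 CPM in KO and 52.7 and 50.6 CPM in WT libraries. Ndufs7 and Ndufs3, core subunits of the peripheral arm, had log2 fold changes of -0.29 and -0.09. Per length, the highest levels were those of Ndufb11 and Ndufa1, both X-linked. Ndufb11 averaged 107.1 ± 14.7 RPKM (CPM per kilobase of exon) in KO and 87.2 ± 4.02 RPKM in WT libraries, and Ndufa1 105.6 ± 20.6 RPKM in KO and 78.7 ± 0.10 RPKM in WT libraries (SD, n = 2 each). With principal transcript lengths in place of all exons, Ndufb10 and Ndufb7 took those places.

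Complex II, succinate dehydrogenase, is the only complex encoded wholly in the nucleus. Its 4 subunits had log2 fold changes from 0.09 to 0.30. Of these, 3 (75%, against 27.9% of all tested genes) were above WT in both KO libraries. Sdha, the flavoprotein that oxidises succinate, had 307.2 and 258.8 CPM in KO libraries, against 233.2 and 225.1 CPM in WT libraries (log2 fold change 0.30 ± 0.13; adjusted p = 0.305 and 0.299). Sdhb, the iron-sulphur subunit, overlapped at 106.3 and 90.3 CPM in KO and 85.9 and 91.8 CPM in WT libraries. The membrane anchors Sdhd and Sdhc had log2 fold changes of 0.16 and 0.09. Sdha and Sdhd had the highest levels per length, 68.6 ± 8.30 and 58.8 ± 0.85 RPKM in KO, against 55.5 ± 1.40 and 52.6 ± 4.53 RPKM in WT libraries.

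Complex III, the cytochrome bc1 complex, had 8 members with a median log2 fold change of 0.20. Of these, 6 (75%, against 27.9% of all tested genes) were above WT in both KO libraries. Uqcrh, the hinge protein beside cytochrome c1, had 167.5 and 116.2 CPM in KO libraries, against 101.5 and 108.7 CPM in WT libraries. Its KO libraries differed more from each other than KO replicate 2 did from WT (log2 fold change 0.43 ± 0.19; adjusted p = 0.305 and 0.179). Uqcrfs1, the Rieske iron-sulphur protein, had 126.1 and 104.7 CPM in KO and 86.8 and 90.9 CPM in WT libraries. The core proteins Uqcrc1 and Uqcrc2 had log2 fold changes of 0.20 and 0.19. Uqcr10 and Uqcrq, small subunits of the membrane part, overlapped between the groups, at 45.1 and 50.4 CPM in KO and 45.2 and 45.3 CPM in WT libraries for Uqcr10. Uqcrq had 57.0 and 53.9 CPM in KO and 53.8 and 57.3 CPM in WT libraries. Uqcrh and Uqcr10 had the highest levels per length, 114.7 ± 29.3 and 81.8 ± 6.45 RPKM in KO, against 85.0 ± 4.11 and 77.5 ± 0.16 RPKM in WT libraries.

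Complex IV, cytochrome c oxidase, had 19 members, of which 15 could be tested. Their median log2 fold change was 0.12. In both KO libraries 8 were above WT (53.3%, against 27.9% of all tested genes) and 1 below (6.67%, against 28.4%). Cox4i1, the ubiquitous isoform of a regulatory subunit, had 363.7 and 291.9 CPM in KO libraries, against 235.2 and 248.98 CPM in WT libraries (log2 fold change 0.44 ± 0.15; adjusted p = 0.267 and 0.172). Cox6a1, the most abundant member per length in this complex, overlapped at 253.8 and 294.5 CPM in KO and 287.3 and 296.0 CPM in WT libraries. Cox6c and Cox7c also overlapped, with log2 fold changes of 0.00 and 0.07.

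Cox6b2 was the complex IV subunit that fell. It encodes the isoform of the subunit Cox6b that is known mainly from testis. It had 4.54 and 12.5 CPM in KO libraries, against 19.3 and 23.3 CPM in WT libraries, with the female KO library lowest. The log2 fold change was -1.32 ± 0.44 (adjusted p = 0.267 without a covariate and 0.021 with the sex term), with -2.07 for the females and -0.89 for the males. It was -0.77 without KO replicate 1 and -2.23 without KO replicate 2. It shares no exon bases with another gene and has no near-identical copy among annotated transcripts. Its ubiquitous partner Cox6b1 had 100.1 and 95.8 CPM in KO and 88.5 and 87.3 CPM in WT libraries. Per length, Cox6b2 stood at 7.69 ± 5.07 RPKM in KO and 19.2 ± 2.52 RPKM in WT, beside Cox6b1 at 138.4 ± 4.30 RPKM in KO and 124.1 ± 1.22 RPKM in WT libraries.

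The other tissue isoforms were scarce in both genotypes. Cox4i2, the lung isoform, averaged 0.57 ± 0.30 RPKM in KO and 0.84 ± 0.20 RPKM in WT libraries, against 211.5 ± 32.7 and 156.2 ± 6.27 RPKM for Cox4i1. Cox6a2, the heart and muscle isoform, averaged 0.93 ± 0.25 RPKM in KO and 0.69 ± 0.19 RPKM in WT, against 390.5 ± 41.0 and 415.5 ± 8.68 RPKM for Cox6a1. Cox7a1, also a heart and muscle isoform, averaged 3.15 ± 1.15 RPKM in KO and 2.90 ± 0.47 RPKM in WT, beside 65.0 ± 3.94 and 56.6 ± 4.33 RPKM for Cox7a2. Groups overlapped for Cox4i2, Cox6a2 and Cox7a1, and none passed the test. Cox8a, the ubiquitous form, averaged 193.0 ± 2.6 RPKM in KO and 170.8 ± 5.76 RPKM in WT libraries. Cox8b had 0 and 3 counts in KO and 0 and 2 counts in WT libraries, and Cox8c and Cox7b2 had 0 counts in all 4. Ndufa4 had 79.7 and 76.2 CPM in KO and 74.3 and 73.1 CPM in WT libraries, an order that reverses in the fold change when library totals replace TMM factors (-0.00). Its paralogue Ndufa4l2, known as hypoxia-induced, had 0 and 0 counts in KO and 1 and 2 counts in WT libraries. A count of 0 allows up to 3 counts, 0.13 and 0.14 CPM in the KO libraries, so the 4 untested complex IV genes were not separable between the groups.

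**Figure D2:**
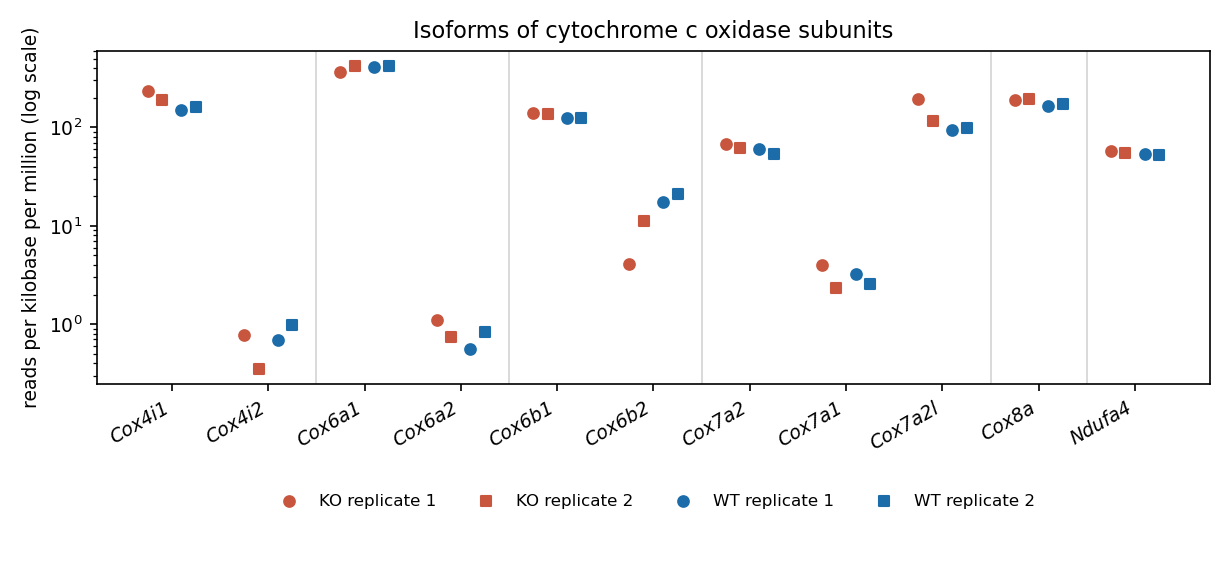
Level per length (RPKM, log axis) of complex IV isoforms in each library, KO left of WT; circles are replicate 1 and squares replicate 2, and grey lines separate the isoform sets. Cox7a2l, drawn beside Cox7a2 and Cox7a1, is a supercomplex assembly factor. Cox6b2 is the isoform whose KO libraries (4.10 and 11.3 RPKM) lie clearly below WT (17.4 and 21.01 RPKM).

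Complex V, ATP synthase, had 17 tested members with a median log2 fold change of 0.21. Of these, 14 (82.4%, against 27.9% of all tested genes) were above WT in both KO libraries. The main subunits of the F1 head, where ATP is made, were the most abundant of these per length, though with principal transcript lengths Atp5h came before Atp5a1. Atp5b, the beta subunit, had 1031 and 990.5 CPM in KO libraries and 951.0 and 924.6 CPM in WT libraries (log2 fold change 0.11 ± 0.14; adjusted p = 0.707 and 0.802). Atp5a1, the alpha subunit, had 896.9 and 706.1 CPM in KO and 599.2 and 613.5 CPM in WT libraries (0.40 ± 0.17; adjusted p = 0.30 and 0.280). The F1 subunits Atp5c1 (gamma), Atp5d (delta) and Atp5e (epsilon) had log2 fold changes of 0.32, 0.21 and 0.48. The largest change was that of Atp5mpl, a small proteolipid of the membrane part, at 76.0 and 64.0 CPM in KO and 50.1 and 49.5 CPM in WT libraries (0.49 ± 0.13; adjusted p = 0.267 and 0.077).

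The ring-forming c subunit of ATP synthase is encoded by 3 genes. Atp5g2 had 108.1 and 85.6 CPM in KO and 70.8 and 75.0 CPM in WT libraries. Atp5g3 had 184.3 and 192.1 CPM in KO and overlapped with WT at 180.5 and 186.2 CPM. Atp5g1 had 38.8 and 32.9 CPM in KO and 32.5 and 31.2 CPM in WT libraries. None of the 3 passed the test, and their differences from each other were not tested. Atp5s, coupling factor B, was the only tested complex V member lower in both KO libraries, at 3.04 and 5.41 CPM in KO and 5.57 and 6.99 CPM in WT libraries (-0.57 ± 0.33; adjusted p = 0.395 and 0.214).

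The 25 assembly factors were the most varied group, with log2 fold changes from -2.02 to 0.70 and a median of 0.10. Both KO libraries were above WT for 9 (36%, against 27.9% of all tested genes) and below for 4 (16%, against 28.4%). Cox7a2l, which joins complexes III and IV into supercomplexes and of which C57BL/6 mice are known to carry a shortened form, had 287.2 and 171.9 CPM in KO libraries, against 138.5 and 144.0 CPM in WT libraries. KO replicate 1 was highest, and the log2 fold change of 0.70 ± 0.24 did not pass either test (adjusted p = 0.267 and 0.077). Uqcc2, needed for translation of cytochrome b and complex III assembly, had 22.1 and 17.8 CPM in KO and 12.3 and 12.6 CPM in WT libraries (0.68 ± 0.17; adjusted p = 0.267 and 0.073). Uqcc3, the second most abundant per length, had 32.4 and 32.7 CPM in KO and 27.5 and 27.4 CPM in WT libraries. Ndufaf6, a complex I factor, had 3.18 and 2.92 CPM in KO and 1.52 and 2.22 CPM in WT libraries. The 8 complex I factors had a median log2 fold change of 0.15, the 4 complex II factors 0.07 and the 3 complex III factors 0.25.

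The 9 assembly factors of complex IV had a median log2 fold change of -0.16. Of them, 2 (22.2%, against 27.9% of all tested genes) were above WT in both KO libraries and 3 (33.3%, against 28.4%) below. Cox20 and Cox11 among them fell in the sex-term fit, where 2.2% of all genes were called lower. Cox20, which holds the newly made subunit encoded by mt-Co2 in the membrane, had 1.59 and 6.11 CPM in KO libraries, against 15.7 and 15.6 CPM in WT libraries. These are 36 and 132 counts in KO and 371 and 442 counts in WT. The KO libraries differed widely but did not overlap with WT, and the log2 fold change was -2.02 ± 0.55 (adjusted p = 0.267 without a covariate and 0.019 with the sex term). It was -1.35 without KO replicate 1 and -3.29 without KO replicate 2. Of its 883 exon bases 804 are shared with Hnrnpu, a highly expressed gene on the other strand, and reads there were left out of its count. A near-identical copy covers 75.2% of its principal transcript. Its values therefore rest on a small part of the transcript and are uncertain. Hnrnpu had 1333 and 1223 CPM in KO and 1266 and 1233 CPM in WT libraries (log2 fold change 0.03).

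Cox11, which delivers copper to the subunit encoded by mt-Co1, had 10.1 and 13.7 CPM in KO libraries, against 20.97 and 20.00 CPM in WT libraries. The log2 fold change was -0.78 ± 0.19 (adjusted p = 0.267 without a covariate and 0.0496 with the sex term, just inside the threshold of 0.05), with -1.04 for the females and -0.55 for the males. It shares 688 of 1423 exon bases with Tom1l1, which had 2.20 and 5.97 CPM in KO and 6.12 and 6.46 CPM in WT libraries, so this count is uncertain too. Cox17, the chaperone that brings copper to Cox11 and its partners, had 7.54 and 11.5 CPM in KO and 11.8 and 12.3 CPM in WT libraries and did not pass. Cox19, a further copper-related factor, overlapped at 20.3 and 23.6 CPM in KO and 21.1 and 21.7 CPM in WT libraries. Cox10 and Cox15 make haem A, the cofactor of complex IV. Cox10 had 31.2 and 21.8 CPM in KO and 16.8 and 19.0 CPM in WT libraries (0.57 ± 0.20; adjusted p = 0.272 and 0.136), and Cox15 had a log2 fold change of 0.20.

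**Figure D3:**
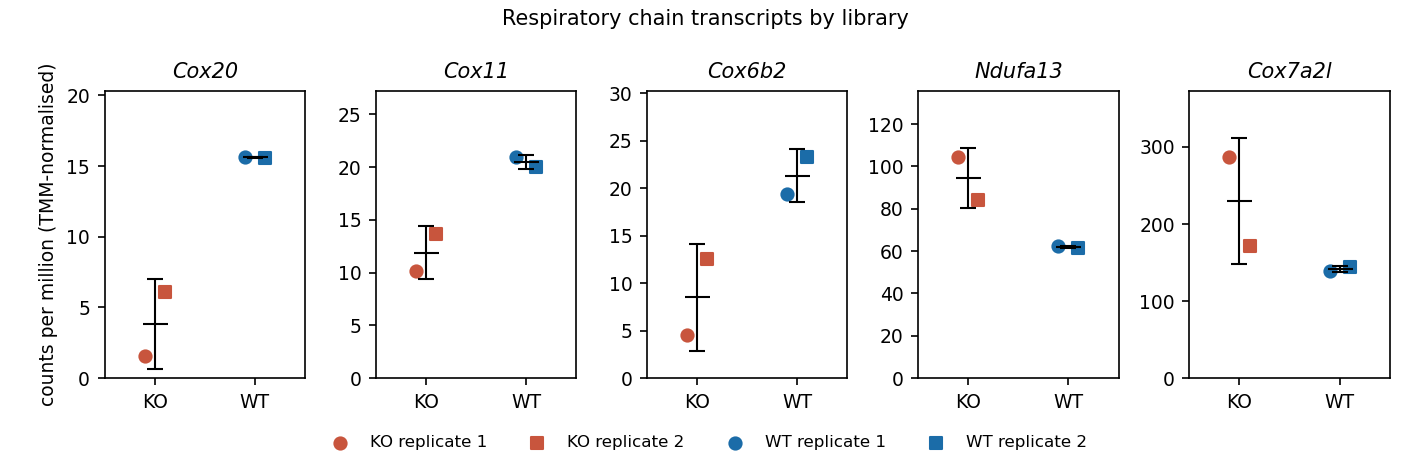
CPM (TMM-normalised, axes from 0) in each library for the 3 members that fell and the 1 that rose in the sex-term fit, and for Cox7a2l; circles are replicate 1, squares replicate 2, and bars show the mean ± SD (n = 2 each). Cox20 lies at 1.59 and 6.11 CPM in KO against 15.7 and 15.6 CPM in WT; the KO libraries scatter more than the WT libraries for every gene drawn.

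Members without shared exon bases or near-identical copies were also read apart. Of the 110 members, 42 share at least 1 exon base with another gene, 22 over more than 10% of the principal transcript, and 29 have a near-identical copy (at least 95% over at least 100 bases) among other annotated transcripts. The 49 tested members with neither had a median log2 fold change of 0.19. In both KO libraries 33 were above WT (67.3%, against 27.9% of all tested genes) and 4 below (8.16%, against 28.4%). Members are short and abundant: 61 of the 105 lie in the shortest 25% of tested genes, whose median log2 fold change was -0.03, and 40 in the most highly expressed 25%, whose median was 0.06. The part of overlap, copies, length or level in the shift was not tested.

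Summed over all members, nuclear-encoded respiratory chain transcripts took 0.852% and 0.864% of the counts in KO libraries, against 0.775% and 0.805% in WT libraries. The exact 95% intervals reach from 0.848% to 0.856% and from 0.860% to 0.868% in KO, and from 0.772% to 0.779% and from 0.802% to 0.808% in WT. They cover counting error only, and with 2 libraries against 2 an exact permutation test cannot go below p = 0.333. Complex V took the largest share, 0.337% and 0.332% in KO and 0.299% and 0.305% in WT libraries. Complex I took 0.197% and 0.208% in KO and 0.184% and 0.194% in WT libraries. Complex IV overlapped, at 0.130% and 0.140% in KO and 0.128% and 0.133% in WT libraries. Complexes II and III and the assembly factors took between 0.0501% and 0.0727% in KO and between 0.0450% and 0.0655% in WT libraries.

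**Figure D4:**
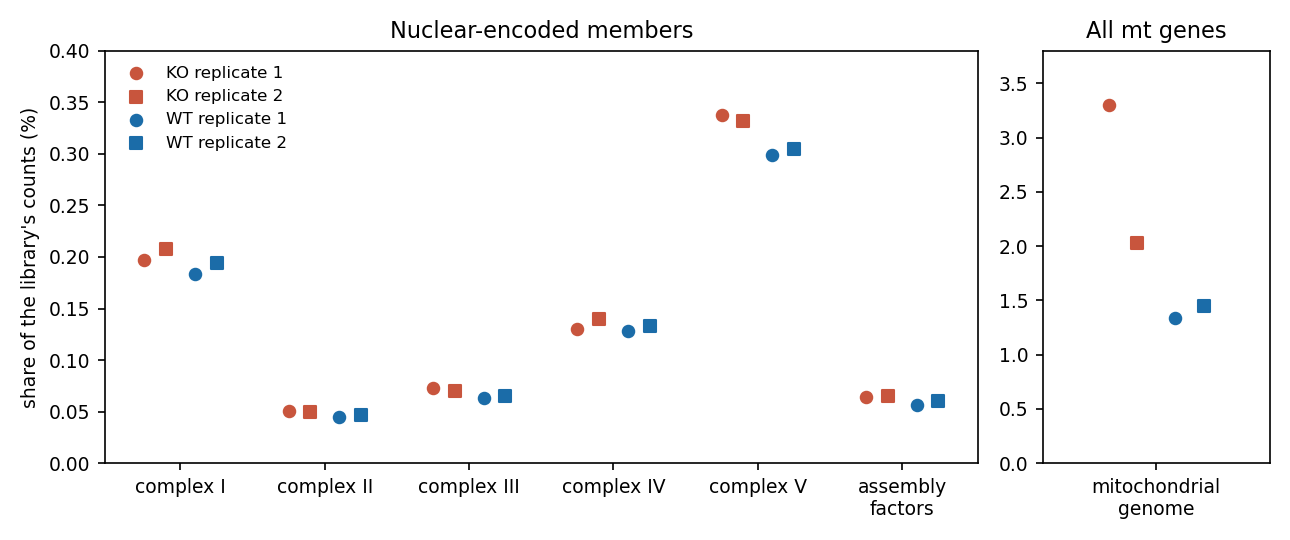
Share of each library's counts (%) taken by the members of each complex (left) and by all genes of the mitochondrial genome (right, another scale), KO left of WT; circles are replicate 1 and squares replicate 2. Complex V takes 0.337% and 0.332% in KO against 0.299% and 0.305% in WT, and mitochondrial genes 3.30% and 2.03% against 1.33% and 1.45%.

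The subunits encoded by mitochondrial DNA, which join the same complexes, differed more between the groups. All 13 were above WT in both KO libraries, against 27.9% of all tested genes. Their median log2 fold change was 1.25, against 0.18 for the 80 tested nuclear-encoded subunits. Their median log2 difference was 1.76 between the females and 0.55 between the males. Without a covariate 0 of the 13 passed the edgeR test. At an unadjusted p below 0.05, 12 were higher, against 8.14% of all tested genes. In the sex-term fit 6 rose (1.01% of all genes were called higher), among them mt-Co2 (93.1 and 44.0 CPM in KO, against 27.1 and 29.8 CPM in WT libraries), mt-Co3 (34.5 and 19.4 CPM in KO, against 10.2 and 13.3 CPM in WT), mt-Nd3 (29.1 and 14.2 CPM in KO, against 6.92 and 9.17 CPM in WT) and mt-Atp6 (29.1 and 18.3 CPM in KO, against 9.62 and 11.7 CPM in WT). The more abundant mt-Nd4 also rose, at 3012 and 1370 CPM in KO and 843 and 912 CPM in WT libraries. mt-Co1 had 13378 and 8473 CPM in KO and 5674 and 6141 CPM in WT libraries. It passed in neither edgeR fit (adjusted p = 0.267 and 0.170), and nor did mt-Cytb (0.267 and 0.149). Why levels differed so widely between genes of the same genome was not tested. By complex, the mitochondrially encoded and the nuclear-encoded subunits had median log2 fold changes of 1.32 and 0.18 for complex I, 1.20 and 0.12 for complex IV and 1.05 and 0.21 for complex V. For complex III the single mitochondrial gene, mt-Cytb, had 0.75 beside 0.20 for the nuclear-encoded subunits. All mitochondrial genes together took 3.30% and 2.03% of the counts in KO and 1.33% and 1.45% in WT libraries.

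**Figure D5:**
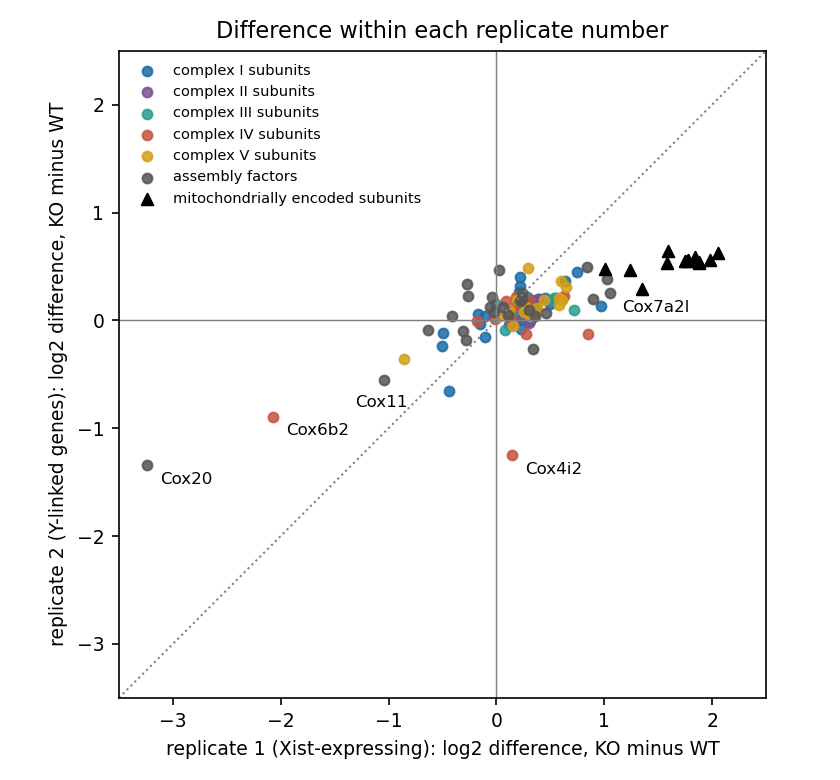
Log2 difference of KO minus WT within replicate 1 (horizontal, Xist-expressing) and within replicate 2 (vertical, Y-linked genes expressed) for each tested member, coloured by complex, and for the mitochondrially encoded subunits (triangles); the dotted line marks equal differences. Most members sit close to the origin with medians of 0.24 and 0.10, mitochondrially encoded subunits sit at 1.76 and 0.55, and Cox20, Cox6b2 and Cox11 are low in both pairs.

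Respiratory chain genes with other names, and lists of related mitochondrial genes, had median changes nearer to or below 0. Of 31 further assembly factors tested, 8 (25.8%) were above and 7 (22.6%) below WT in both KO libraries, against 27.9% and 28.4% of all tested genes. Their median log2 fold change was 0.04, and 0 were called in either edgeR fit. At an unadjusted p below 0.05 without a covariate there was 1 higher and 1 lower, against 8.14% and 8.69% of all tested genes. The 7 further subunits and electron carriers tested had a median log2 fold change of -0.08, with 3 positive and 4 negative. Both KO libraries were above WT for 3 (42.9%) and below for 2 (28.6%), against 27.9% and 28.4% of all tested genes. Among the 7, Cyc1, cytochrome c1 of complex III, had 84.1 and 102.7 CPM in KO and 113.2 and 110.1 CPM in WT libraries. Cycs, the mobile cytochrome c, had 63.9 and 65.0 CPM in KO and 57.9 and 54.1 CPM in WT libraries. The 13 genes of coenzyme Q synthesis had a median of -0.16, with 1 above (7.69%) and 4 below (30.8%). The 16 tested genes of mitochondrial biogenesis and transcription had a median of -0.06, with 3 above (18.75%) and 8 below (50%). In the coenzyme Q and biogenesis lists 0 genes were called in either fit, and 0 of either list had an unadjusted p below 0.05 without a covariate. Among them Nrf1 had 138.6 and 116.7 CPM in KO and 137.6 and 125.6 CPM in WT libraries. Tfam, which packages mitochondrial DNA, had 58.2 and 66.1 CPM in KO and 60.8 and 64.3 CPM in WT libraries. Yy1 had 398.1 and 327.1 CPM in KO and 361.2 and 361.1 CPM in WT libraries. Whether these lists differ from the members was not tested. Of the marker lists, Cd1d1 among DP thymocyte genes and Ttr among hepatocyte genes were called lower in KO in the sex-term fit. The adjusted p of Cd1d1 was 0.267 without a covariate and 0.037 with the sex term, and that of Ttr 0.590 and 0.043. Cd1d1, which presents lipids to invariant natural killer T cells, had 60.5 and 80.7 CPM in KO and 103.8 and 113.6 CPM in WT libraries. Ttr had 8.42 and 0.60 CPM in KO and 15.4 and 4.41 CPM in WT libraries.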

How the data were processed

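Poly-A RNA of sorted DP thymocytes was sequenced in 2 KO and 2 WT libraries. The authors deposited unnormalised counts of fragments for each gene, from featureCounts 1.6.3 and the Ensembl 98 annotation per the file headers, without strand and without options for multi-mapped or multi-gene fragments. The submitters' processing notes name HISAT2, Trim Galore 0.5.0, DESeq2, FastQC and featureCounts 1.6.4, with the GRCm38 build. The deposited length over a gene's exons, per the file headers, served for RPKM, with GENCODE M21 principal transcript length as an alternative. Symbols came from GENCODE M21 (98.2% of IDs matched; the others held at most 0.0033% of counts). Another 13 genes with such names are not protein coding and were left out.

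Genes passing edgeR 4.0.16's filterByExpr (15070, holding at least 99.9% of each library's counts) were scaled with TMM (0.919 to 1.04) and tested with the quasi-likelihood F test, KO over WT, in R 4.3.3, with Benjamini-Hochberg adjustment over all of them at 0.05. No covariate entered it, leaving 2 residual degrees of freedom; the sex-term fit had 1. In the text, 2 adjusted p values in a row are those without and with the sex term. Of the members, 5 were not tested: Cox7b2, Cox8b, Cox8c, Ndufa4l2 and the second Atp5o ID. Pair differences are log2 CPM with a prior count of 2. DESeq2 1.42.0 and limma 3.58.1 gave alternatives, as did other scalings, filters, length-trend offsets and leaving out each library. Copies were searched with blastn 2.17.0. The test script was tested on simulated data.

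How many mice a library holds is not given in the labels, so p-values measure the spread between libraries, whose counts differed well beyond sampling noise (chi-square per degree of freedom 36.2 between KO and 8.32 between WT replicates). Members and lists were chosen with earlier results of these data known, so no adjustment over a list alone is given. Genes are named where they passed either edgeR fit, had the 2 highest mean RPKM or the largest or smallest change of their group, or form isoform sets of complex IV; members outside this rule were added for their roles after their values were seen.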

Additional observations from a re-analysis of the deposited data

Results flagged for a closer look

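Opposite signs in the female and the male pair were found for 5 of the 28 tested members named by the rule; with 1 library per genotype and sex the difference between pairs was not tested. Uqcr10 had log2 differences (KO minus WT) of -0.0027 between the females and 0.15 between the males, and Uqcrq of 0.081 and -0.088 in that order. The other 3 were scarce complex IV isoforms: Cox4i2 with 0.15 and -1.25, Cox6a2 with 0.85 and -0.13, and Cox7a1 with 0.28 and -0.13, none above 3.96 RPKM in any library.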

How the results depend on the processing

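The median log2 fold change of the members stayed positive under every alternative run, from 0.085 with library totals to 0.21 without WT replicate 2. The numbers of called members moved most. Percentages are of all genes tested in a setting, and are not available for the replicate block with length-trend offsets or DESeq2. Without a covariate the numbers were 0 higher and 0 lower (0.00664% and 0%). They were 1 and 3 with the replicate block, the sex-term fit (1.01% and 2.2%), and 1 and 3 with DESeq2 (1.17% and 1.89%). They were 7 and 3 without a low-count filter (2.41% and 3.22%). They were 6 and 3 with the replicate block and length-trend offsets, and 0 and 2 with the replicate block and DESeq2. They ranged from 0 to 34 higher and from 0 to 9 lower on leaving out 1 library. The other scalings, the 1 CPM filter, limma-voom, length-trend offsets alone and the block with robust dispersion called 0. Deviations of same-numbered libraries correlated at 0.47, but there are only 2 pairs and the labels state no pairing. On leaving out 1 library, members wholly above WT ranged from 67 to 78 (36.3% to 42.5% of all genes) and members wholly below from 11 to 22 (37.2% to 43.4% of all genes); with fewer libraries all genes overlap less. Of 418 alternative values of 28 named members, 406 kept their direction and 12 reversed. Uqcrq was 0.0022 with DESeq2 size factors, 0.0021 with DESeq2, 0.0022 with the block and DESeq2, and 0.057 and 0.055 with length-trend offsets without and with the block. Ndufa4 was -0.0017 with library totals. On leaving out 1 library, Uqcrq ranged from -0.043 (without KO replicate 1) to 0.042 (without WT replicate 2), Cox6a1 from -0.20 (without KO replicate 2) to 0.015 (without KO replicate 1), Uqcr10 from -0.0049 (without KO replicate 2) to 0.16 (without KO replicate 1), and Cox7a1 from -0.31 (without KO replicate 1) to 0.45 (without KO replicate 2). The log2 ratio of the complex I share was 0.118 over nuclear counts, against 0.099 over all counts. The share of member promoters with the ETS letters was 4.55% on the gene's own strand. The causes were not tested. With 1 or 2 residual degrees of freedom, small changes of single members lie below what these libraries can show.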
